A study of Mus musculus with 7 samples.

Results

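The tumour necrosis factor (TNF) superfamily was followed in splenic monocytes of mice that had been given an antiphospholipid antibody or a Toll-like receptor agonist in culture. Members were the genes with a symbol starting with Tnfrsf (receptors) or Tnfsf (ligands) that had a probe set, the array's unit of measurement, naming that gene alone. The rule gave 29 of the 22180 genes with such a probe set, 20 of them receptors and 9 ligands. Each member had 1 probe set annotated to it alone, and no filter on level was set. Tnf itself was left out by the rule. Tnfsf12 and Tnfsf13 were left out because their probe set was annotated to several genes. A further probe set annotated to Tnfrsf18 together with Gm16008 was not used in the fit, and its values stand beside those of Tnfrsf18.

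RNA was measured on 7 Affymetrix Mouse Gene 2.0 ST arrays, each with cells of 1 mouse under 1 condition. The HL7G group (400 ng/ml; a monoclonal antibody of the antiphospholipid class that patients with antiphospholipid syndrome carry) had 1 array from each of 2 mice. R848 at 2 µg/ml stimulates TLR7 and had 1 array, from mouse 1. CpG B, a DNA oligonucleotide that stimulates TLR9, was used at 2.5 µM, also with 1 array from mouse 1. The synthetic RNA duplex poly I:C, a ligand of TLR3, was used at 1 µg/ml on 1 array, again from mouse 1. The unstimulated group had 1 array from each mouse. Stimulation lasted 3 h. No time is given for the unstimulated samples, so whether they were cultured equally long is not known. All cells were selected spleen monocytes carrying wild-type EPCR, a receptor for protein C on endothelial and other cells. The labels give neither the age, sex and strain of the mice nor the way the cells were selected.

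Ligands of the TNF superfamily are mostly trimeric proteins on the cell surface or shed from it. Their receptors carry cysteine-rich repeats outside the cell, and inside it either bind TRAF adaptor proteins, which switch on NF-kB and MAP kinases, or carry a death domain that can start apoptosis. In monocytes and macrophages TNF acts back on the cell through the receptors encoded by Tnfrsf1a and Tnfrsf1b. Other members govern B cell survival, T cell costimulation and osteoclast formation.

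Values are log2 levels as the authors deposited them, so a difference of 1 is a doubling. Levels of different genes come from different probes, so they are not read as more or less RNA of 1 gene than of another. Where genes are subtracted or summed, the result is compared between arrays alone. Counts and medians of levels over lists of genes describe probe set readings. No detection calls were used, so whether a dim member was above background is not known. Of the 29 members, 14 reached a level of 5 on at least 1 array and 15 stayed below 5 on all arrays. The range of a member over the 7 arrays had a median of 0.69, and it was under 1 for 24 members and at least 1 for 5. Those 5 were Tnfrsf1b (2.05), Tnfrsf23 (1.39), Tnfsf8 (1.27), Tnfsf18 (1.05) and Tnfrsf13b (1.01). In bulk RNA, a change in the number of cells of a type and a change in RNA per cell cannot be told apart.

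Facts of the whole set of arrays bear on every comparison with the unstimulated group. Actb, the cytoskeletal actin, read 9.34 and 8.31 with HL7G and 7.77 to 8.49 with the agonists, against 5.02 and 6.81 in the unstimulated samples. The glycolysis gene Gapdh differed in the opposite direction, with 7.75 and 8.07 with HL7G, 7.73 to 8.32 with the agonists and 9.13 and 8.75 in the unstimulated samples. B2m read 10.26 and 9.91 with HL7G and 9.23 to 9.71 with the agonists, against 5.74 and 7.90 in the unstimulated samples. Eef1a1 read 10.80 and 10.38 with HL7G and 10.23 to 10.36 with the agonists, against 6.61 and 9.46. For Actb, B2m and Eef1a1 the mouse 1 unstimulated array was the lowest of the 7. Of 12 measured monocyte and macrophage markers, 5 stayed below 5 on all arrays and 3 reached 6 on some array. Ly6c2 and Ccr2, genes of classical monocytes, lay between 3.74 and 4.38 and between 3.76 and 4.09. Lyz2 lay between 4.53 and 7.02, Cx3cr1 between 5.13 and 6.50 and Cd68 between 5.41 and 6.20.

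**Figure D1:**
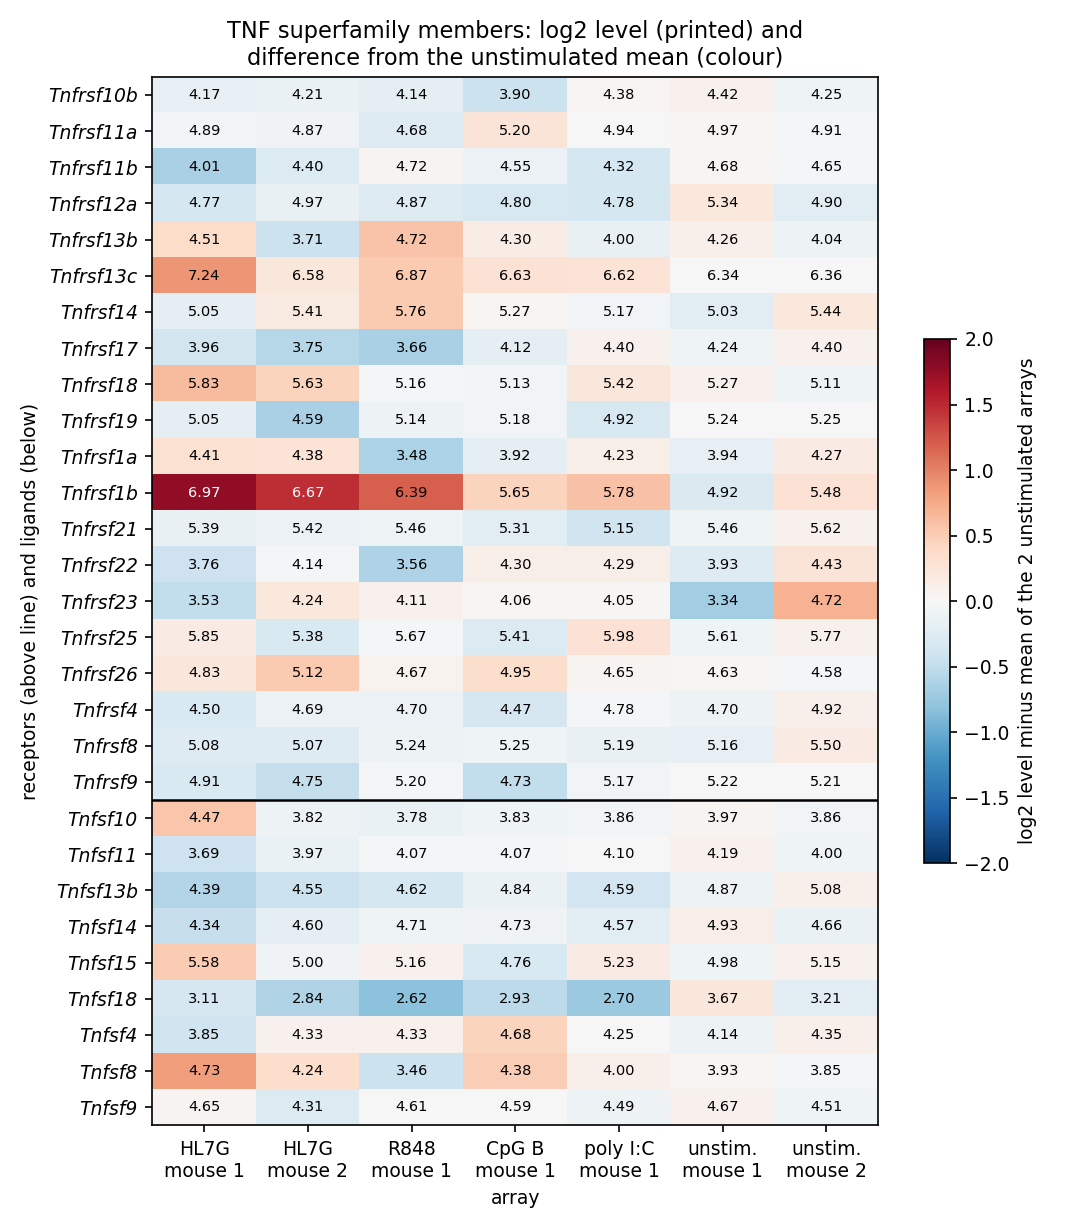
Log2 level of the 29 members (rows) on the 7 arrays (columns). Printed numbers are levels, and colour gives the difference from the mean of the 2 unstimulated arrays on the log2 scale. Tnfrsf1b is the row of strongest colour, at 6.97 and 6.67 with HL7G and 6.39 with R848.

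The first comparison asks which TNF superfamily genes monocytes changed after 3 h with HL7G. The transcript of Tnfrsf1b, the TNF receptor found mainly on immune cells, rose 3.08-fold. It was the 1 member called higher of 29, and 0 members were called lower. Among all 22180 genes, 8.32% were called higher and 1.51% lower, 9.83% in all (limma, adjusted p under 0.05 over all genes). No ligand was called. At an unadjusted p under 0.05 there were 5 of 29 members, Tnfrsf1b, Tnfrsf18, Tnfsf8, Tnfsf13b and Tnfrsf17, and 6342 of all 22180 genes. The median difference of the members was -0.14, beside -0.12 over all genes, with 9 members above 0 and 20 below. The median over genes was 0.06 for genes at 5 or more on some array and 0.86 for those with a mean of at least 6. Both filters include the stimulated arrays, so a gene can pass because it rose with stimulation. These medians therefore do not separate a shift with level from the response. Tnfrsf1b had a mean level of 5.98, and the part of any shift with level in its difference was not tested.

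The 2 HL7G arrays both lay above the 2 unstimulated arrays for 6 members (20.7%), against 25.6% of all genes. They both lay below for 13 members (44.8%), against 38% of all genes. For 10 members the groups overlapped. These shares are near those of all genes. In 24 of the 29 members the 95% interval of the HL7G difference lay inside a 2-fold change in either direction, as in 15325 of all 22180 genes. This holds at the precision of 2 mice and for the probe set readings. For the 15 members below 5 on all arrays it may not bound the transcript, since a reading at background would hardly change. The other 5 members were Tnfrsf1b, whose interval lay wholly above a 2-fold rise, and Tnfsf8, Tnfrsf13c, Tnfsf18 and Tnfrsf23, whose intervals crossed a 2-fold change. The absolute HL7G difference of the members had a median of 0.26, and the absolute difference between replicates had a median of 0.29 between the HL7G arrays and 0.18 between the unstimulated arrays.

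**Figure D2:**
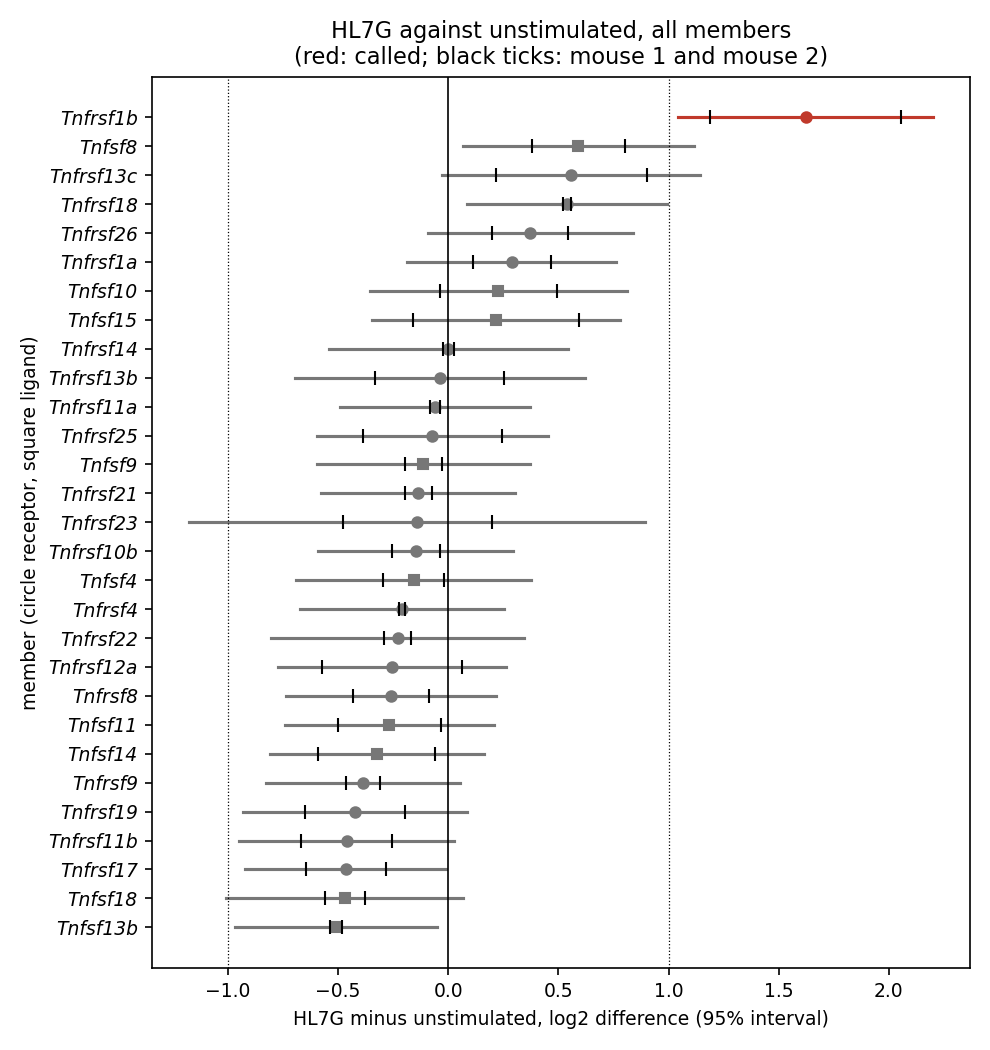
HL7G minus unstimulated on the log2 scale (horizontal axis) for each member (circles receptors, squares ligands), with 95% intervals from limma and black ticks for the difference within mouse 1 and within mouse 2. Dotted lines mark a 2-fold change. Tnfrsf1b, in red, is the called member at 1.62, and the intervals of 24 members lie between the dotted lines.

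Tnfrsf1b encodes the TNF receptor that lacks a death domain and signals through TRAF proteins. Its level was 6.97 in mouse 1 and 6.67 in mouse 2 with HL7G, 6.39 with R848, 5.65 with CpG B and 5.78 with poly I:C, against 4.92 in mouse 1 and 5.48 in mouse 2 without stimulus. Every stimulated array was above both unstimulated arrays, and the HL7G arrays were the highest. The HL7G difference was 1.62 ± 0.25 SE (n = 2 against 2, limma adjusted p = 0.0119, 95% interval 1.04 to 2.20). It was 2.05 within mouse 1 and 1.19 within mouse 2. The mouse 1 unstimulated array was the lowest of all arrays for Tnfrsf1b, as it was for Actb, B2m and Eef1a1. The call depended on the mouse 1 unstimulated array, without which the difference was 1.34 (limma adjusted p = 0.123, 1 residual degree of freedom). After cyclic loess and after quantile normalization the difference was 1.21 in both, and the call was kept (limma adjusted p = 0.0244 and 0.0198).

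Tnfrsf1a encodes the other TNF receptor, which has a death domain and is made by most cells. It read 4.41 and 4.38 with HL7G, 3.48 with R848, 3.92 with CpG B and 4.23 with poly I:C, against 3.94 and 4.27 in the unstimulated samples. The HL7G arrays lay above the unstimulated arrays by 0.11 at the least within a mouse, and the R848 array was the lowest. The HL7G difference of 0.29 ± 0.20 was not called (limma adjusted p = 0.371, 95% interval -0.19 to 0.76). The within-array difference of Tnfrsf1b minus Tnfrsf1a was 2.56 and 2.29 with HL7G, 2.91 with R848, 1.74 with CpG B and 1.56 with poly I:C, against 0.97 and 1.21 in the unstimulated samples. It was highest with R848, where Tnfrsf1a had its lowest reading, and every stimulated array was above the unstimulated pair. Tnfrsf1a stayed below 5 on all arrays, so whether its readings were above background is not known. The HL7G and unstimulated means of the within-array difference differed by 1.33, and this value was not tested. Tnf, the ligand of both, read 7.82 and 8.09 with HL7G, against 4.97 and 5.99 in the unstimulated samples.

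**Figure D3:**
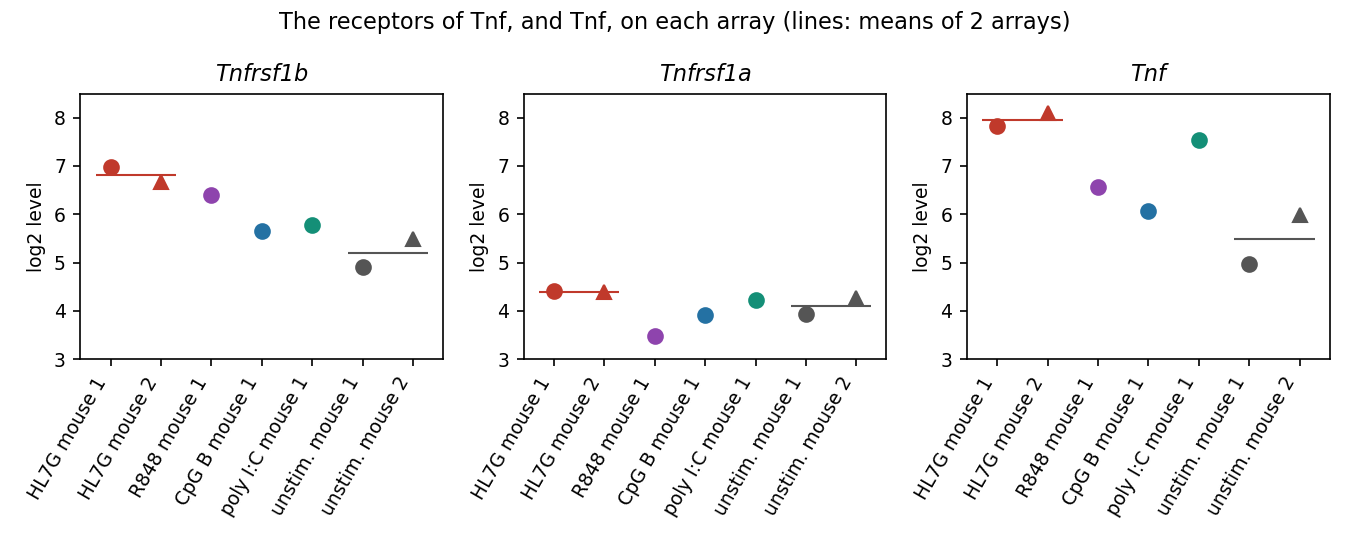
Log2 level of Tnfrsf1b, Tnfrsf1a and Tnf on each array (circles mouse 1, triangles mouse 2), with lines at the means of the 2 HL7G and the 2 unstimulated arrays. Levels are read within a panel, since probes differ between genes. Tnfrsf1b and Tnf have both HL7G arrays above all other arrays, while Tnfrsf1a spans 3.48 to 4.41.

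The 250 bases before the annotated start of both TNF receptor genes are shown because 1 of them was called and the other was not. The windows of Tnfrsf9 and Tnfsf13b are added as members that hold the searched motifs and were not called. Sequences are from RefSeq on GRCm38.p6, 5′ to 3′ on the gene's own strand, at chr4:145246871-145247120 (minus strand), chr6:125349473-125349722 (plus strand), chr4:150927749-150927998 (plus strand) and chr8:10006383-10006632 (plus strand). Capitals mark matches on either strand to the kappa B consensus of NF-kB, the AP-1 motif TGANTCA, the core of the interferon-stimulated response element or the ETS core GAGGAAG bound by PU.1.
Tnfrsf1b: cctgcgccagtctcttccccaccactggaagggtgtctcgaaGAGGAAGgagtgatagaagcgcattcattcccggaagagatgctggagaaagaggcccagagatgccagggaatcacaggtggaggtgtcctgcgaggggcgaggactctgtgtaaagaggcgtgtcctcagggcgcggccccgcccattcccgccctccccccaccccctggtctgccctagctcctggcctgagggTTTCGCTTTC
Tnfrsf1a: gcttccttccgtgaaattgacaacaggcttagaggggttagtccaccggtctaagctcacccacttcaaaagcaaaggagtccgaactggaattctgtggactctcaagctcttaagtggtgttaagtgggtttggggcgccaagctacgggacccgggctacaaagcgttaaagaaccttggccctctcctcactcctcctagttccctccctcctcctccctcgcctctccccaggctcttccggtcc
Tnfrsf9: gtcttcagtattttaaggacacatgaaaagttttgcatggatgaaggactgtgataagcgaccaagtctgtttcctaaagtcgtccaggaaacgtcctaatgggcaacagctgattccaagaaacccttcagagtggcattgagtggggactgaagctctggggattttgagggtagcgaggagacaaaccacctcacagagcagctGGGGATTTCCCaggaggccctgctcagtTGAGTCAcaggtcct
Tnfsf13b: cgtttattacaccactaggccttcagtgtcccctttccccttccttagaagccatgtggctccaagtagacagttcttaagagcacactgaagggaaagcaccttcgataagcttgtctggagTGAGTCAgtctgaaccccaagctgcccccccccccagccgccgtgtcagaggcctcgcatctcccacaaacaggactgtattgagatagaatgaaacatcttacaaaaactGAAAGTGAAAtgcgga
The Tnfrsf1b window held an ETS match 208 to 202 bases before the start and an interferon response core, on the opposite strand, in the last 10 bases. It had 12 CG pairs, and that of Tnfrsf1a had 9 and no motif match. In the Tnfrsf9 window an overlapping pair of kappa B matches stood 43 to 33 bases before the start and an AP-1 match 15 to 9 bases before it. That of Tnfsf13b held an AP-1 match and an interferon response core 16 to 7 bases before the start.

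Promoter windows were found for 23 of the 29 members. The kappa B consensus was in 3 of these 23 genes, Tnfrsf25, Tnfrsf8 and Tnfrsf9, and in 8.23% of all 27025 genes with a window. The interferon response core was in 4, Tnfrsf14, Tnfrsf17, Tnfrsf1b and Tnfsf13b, and in 3.46% of all genes. The AP-1 motif was in 4 (7.82% of all genes) and the ETS core in 3 (12.004%). The 3 members with a kappa B match had HL7G differences of -0.07 (Tnfrsf25), -0.26 (Tnfrsf8) and -0.39 (Tnfrsf9), and none was called. A match is a run of letters, and binding was not measured.

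Members that lie side by side in the genome are given together, with no test of the differences between them. Tnfrsf1b and Tnfrsf8 are neighbours on chromosome 4 with 0 protein-coding genes between them in the RefSeq table. Their HL7G differences were 1.62 and -0.26. Tnfrsf18 and Tnfrsf4, also neighbours on chromosome 4, had 0.54 and -0.21, and the ligands Tnfsf8 and Tnfsf15 had 0.59 and 0.22. Chromosome 4 holds 9 of the 29 members.

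The ligand Tnfsf13b encodes BAFF, which myeloid cells make and which keeps B cells alive through the receptors Tnfrsf13c (the BAFF receptor), Tnfrsf13b (TACI) and Tnfrsf17 (BCMA). Tnfsf13b read 4.39 and 4.55 with HL7G, 4.62 with R848, 4.84 with CpG B and 4.59 with poly I:C, against 4.87 and 5.08 in the unstimulated samples. All 5 stimulated arrays lay below both unstimulated arrays. The HL7G difference of -0.51 ± 0.20, with -0.48 in mouse 1 and -0.54 in mouse 2, was not called (limma adjusted p = 0.142).

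Tnfrsf13c read 7.24 and 6.58 with HL7G, 6.87 with R848, 6.63 with CpG B and 6.62 with poly I:C, against 6.34 and 6.36 in the unstimulated samples. Every stimulated array was above the unstimulated arrays in the deposited values. Its HL7G difference of 0.56 ± 0.25 was not called (limma adjusted p = 0.191) and changed sign to -0.27 after cyclic loess and to -0.19 after quantile normalization. It was 0.90 within mouse 1 and 0.22 within mouse 2, and without the mouse 2 HL7G array it was called (0.89, limma adjusted p = 0.0258). B cell markers, genes of the cells that carry this receptor, moved in the same direction: 8 of 10 were called higher with HL7G, among them Fcer2a (1.84) and Ms4a1 (1.75), with a summed level (log2) of 9.72 to 9.81 with HL7G, against 8.34 to 8.64 in the unstimulated samples. Their part in the Tnfrsf13c values was not tested.

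The other BAFF receptors were not called. Tnfrsf13b read 4.51 and 3.71 with HL7G, against 4.26 and 4.04 in the unstimulated samples, so the groups overlapped (difference -0.04 ± 0.28). It was highest with R848, at 4.72. Tnfrsf17, a receptor of plasma cells, read 3.96 and 3.75 with HL7G, 3.66 with R848, 4.12 with CpG B and 4.40 with poly I:C, against 4.24 and 4.40 in the unstimulated samples. Its HL7G difference of -0.47 ± 0.20 was not called (limma adjusted p = 0.169).

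Among the pairs that costimulate T cells, Tnfrsf18 (by its own probe set) and Tnfsf8 were higher in both mice without being called. Tnfrsf18, which encodes GITR of regulatory and activated T cells, read 5.83 and 5.63 with HL7G, 5.16 with R848, 5.13 with CpG B and 5.42 with poly I:C, against 5.27 and 5.11 in the unstimulated samples. The HL7G arrays were the highest of the 7, and the difference was 0.54 ± 0.19 (limma adjusted p = 0.124), with 0.56 in mouse 1 and 0.52 in mouse 2. The probe set shared by Tnfrsf18 and Gm16008 ran the other way, at 3.49 and 4.05 with HL7G, 4.03 with R848, 4.40 with CpG B and 4.04 with poly I:C, against 4.11 and 4.15 in the unstimulated samples. The direction for Tnfrsf18 thus depends on the probe set. T cell markers were higher with HL7G too: 4 of 10 were called higher, among them Cd3g (2.12) and Cd3d (1.91), with a summed level of 9.45 to 9.59 with HL7G, against 8.44 to 8.63 in the unstimulated samples. Foxp3, the factor that defines regulatory T cells, read 4.63 and 4.45 with HL7G, against 4.83 and 4.65 in the unstimulated samples. Their part in the Tnfrsf18 values was not tested.

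Tnfsf18, the ligand of GITR, was lower on all 5 stimulated arrays than on both unstimulated arrays. It read 3.11 and 2.84 with HL7G, 2.62 with R848, 2.93 with CpG B and 2.70 with poly I:C, against 3.67 and 3.21 in the unstimulated samples. The HL7G difference of -0.47 ± 0.23 was not called (limma adjusted p = 0.221).

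Tnfsf8, the ligand of CD30, read 4.73 and 4.24 with HL7G, 3.46 with R848, 4.38 with CpG B and 3.998 with poly I:C, against 3.93 and 3.85 in the unstimulated samples. It was high with HL7G and CpG B and lowest with R848. The HL7G difference of 0.59 ± 0.22 was not called (limma adjusted p = 0.137), but it was without the mouse 2 HL7G array (0.84, limma adjusted p = 0.0338). Tnfrsf8, which encodes CD30, lay between 5.07 and 5.50 on all arrays (difference -0.26 ± 0.20).

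None of the inducible costimulatory receptors Tnfrsf9, Tnfrsf4 and Tnfrsf8 was called. Tnfrsf9, whose product is also called CD137, read 4.91 and 4.75 with HL7G, 5.20 with R848, 4.73 with CpG B and 5.17 with poly I:C, against 5.22 and 5.21 in the unstimulated samples. Both HL7G arrays and the CpG B array were below the other 4 (HL7G difference -0.39 ± 0.19, limma adjusted p = 0.220). Its ligand Tnfsf9 had the narrowest range of the members, 4.31 to 4.67. Tnfrsf4, which encodes OX40, differed by -0.21 ± 0.20, and its ligand Tnfsf4 by -0.16 ± 0.23, with a highest level of 4.68 with CpG B.

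Tnfrsf14, the herpesvirus entry mediator, read 5.05 and 5.41 with HL7G, 5.76 with R848, 5.27 with CpG B and 5.17 with poly I:C, against 5.03 and 5.44 in the unstimulated samples. The HL7G and unstimulated samples agreed within each mouse to 0.03, and the R848 array was the highest. Its ligand Tnfsf14 (LIGHT) differed by -0.33 ± 0.21 with HL7G. Tnfsf15 (TL1A) read 5.58 and 4.996 with HL7G, against 4.98 and 5.15 in the unstimulated samples, and its receptor Tnfrsf25 read 5.85 and 5.38, against 5.61 and 5.77. For both genes mouse 1 and mouse 2 moved in opposite directions.

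The ligand and death receptor of the TRAIL pathway stayed below 5 on all arrays. Tnfsf10, which encodes TRAIL, read 4.47 and 3.82 with HL7G, against 3.97 and 3.86 in the unstimulated samples, and 3.78 to 3.86 with the agonists. The mouse 1 HL7G array stood above the other 6. Its death receptor Tnfrsf10b lay between 3.90 and 4.42 (HL7G difference -0.15 ± 0.19). The mouse decoy receptors of TRAIL, Tnfrsf22 and Tnfrsf23, differed by -0.23 ± 0.25 and -0.14 ± 0.44. Tnfrsf23 had the widest spread in the unstimulated group, at 3.34 in mouse 1 and 4.72 in mouse 2, so its interval of -1.18 to 0.89 leaves a change of 2-fold lower possible. Tnfrsf26, which lies next to them on chromosome 7, differed by 0.37 ± 0.20.

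In the osteoclast pathway Tnfsf11 (RANKL) activates Tnfrsf11a (RANK) and is bound by the soluble decoy Tnfrsf11b (osteoprotegerin). Tnfrsf11b read 4.01 and 4.40 with HL7G, against 4.68 and 4.65 in the unstimulated samples, with no overlap (difference -0.46 ± 0.21, limma adjusted p = 0.193). Tnfrsf11a differed by -0.06 ± 0.18 and Tnfsf11 by -0.27 ± 0.20. Of the remaining receptors, Tnfrsf12a, which binds TWEAK, differed by -0.25 ± 0.22, Tnfrsf19 by -0.42 ± 0.22 and the death receptor Tnfrsf21 by -0.14 ± 0.19, none of them called.

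The next comparisons set each Toll-like receptor agonist against the unstimulated samples. They share those 2 arrays with each other and with the HL7G comparison. With a single array per agonist, these differences have no replicate check of their own, and the arrays were assumed to vary like the replicated groups. Each agonist array came from mouse 1 and the unstimulated arrays from both mice, so a difference between the mice enters these comparisons. No member was called with any agonist in limma, nor was any gene (0% of all 22180 genes in each comparison). At an unadjusted p under 0.05 there were 4 members and 4216 genes with R848, 0 members and 2385 genes with CpG B, and 1 member and 1750 genes with poly I:C.

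R848 gave the widest differences of the agonists. Tnfrsf1b had 1.19 ± 0.30 (limma adjusted p = 0.110, 95% interval 0.49 to 1.90), and it was the 1 member at least 2-fold from the unstimulated mean. Without either HL7G array, which leaves the spread to the unstimulated pair, the value was the same and it was called (limma adjusted p = 0.0267), beside 2031 genes. Tnfsf18 (-0.82 ± 0.28), Tnfrsf17 (-0.66 ± 0.24) and Tnfrsf1a (-0.63 ± 0.25) made up the other members with an unadjusted p under 0.05. The member median was -0.08, beside -0.04 over all genes.

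With CpG B the differences of the members ran from -0.52 (Tnfsf18) to 0.49 (Tnfsf8), and Tnfrsf1b had 0.45 ± 0.30 (95% interval -0.25 to 1.16). The member median was -0.07, beside -0.06 over all genes. With poly I:C they ran from -0.74 (Tnfsf18) to 0.58 (Tnfrsf1b, 95% interval -0.13 to 1.29). The member median was -0.0011, beside -0.06 over all genes. The interval lay inside a 2-fold change for 19 members with R848, 23 with CpG B and 26 with poly I:C. Of all 22180 genes it did so for 13394, 15407 and 16070.

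Without a block on the mouse, differences between the stimuli themselves use the unstimulated arrays for the estimate of spread alone. HL7G arrays came from both mice and agonist arrays from mouse 1 alone. With the mouse as a block, the unstimulated arrays also enter the estimated difference between the mice. In that fit the member median of HL7G against the mean of the 3 agonists was 0.0055, against -0.07 without the block. For HL7G against the mean of the 3 agonists, 0 members and 0% of all genes were called in limma, and 4 of 29 members and 2093 of all 22180 genes had an unadjusted p under 0.05. These were Tnfrsf1b (0.88 ± 0.23, limma adjusted p = 0.379, 95% interval 0.35 to 1.41), Tnfsf8 (0.53 ± 0.20), Tnfrsf1a (0.52 ± 0.19) and Tnfrsf18 (0.49 ± 0.18). All 4 were higher with HL7G. For R848 against CpG B, again with 0 members and 0% of all genes called, 1 member and 963 genes had an unadjusted p under 0.05. Tnfsf8 had the widest difference (-0.93 ± 0.32, limma adjusted p = 0.975), followed by Tnfrsf1b (0.74 ± 0.35, 95% interval -0.07 to 1.56). For the mean of R848 and CpG B against poly I:C, with 0 members and 0% of all genes called, 0 members and 585 genes had an unadjusted p under 0.05, and Tnfrsf1b had 0.24 ± 0.30.

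Superfamily genes that carry other symbols gave 2 of 15 called higher with HL7G and 0 lower, with a median of -0.07. These were Tnf (2.48 ± 0.33, limma adjusted p = 0.00981) and Ltb, which encodes lymphotoxin beta of the surface lymphotoxin complex (1.87 ± 0.28, limma adjusted p = 0.0115). Ltb read 8.04 and 7.82 with HL7G, against 5.67 and 6.45 in the unstimulated samples, and lost the call after cyclic loess (0.79, limma adjusted p = 0.0822). Without the mouse 1 unstimulated array neither was called, at 1.96 for Tnf and 1.49 for Ltb (limma adjusted p = 0.0973 and 0.105). Cd40, the costimulatory receptor of antigen-presenting cells, read 7.999 and 6.12 with HL7G and 6.86 to 7.32 with the agonists, against 5.32 and 5.33 in the unstimulated samples. Every stimulated array was above the unstimulated ones. Its HL7G difference of 1.73 ± 0.52 was not called (limma adjusted p = 0.0774) but passed with the mouse as a block (limma adjusted p = 0.0433), as it did when HL7G of mouse 2 was left out (2.67, limma adjusted p = 9.89e-05). Fas, the death receptor, had 0.58 ± 0.25 (limma adjusted p = 0.177).

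The genes that act inside the cell downstream of these receptors were counted next; the difference between this count and that of the receptors was not tested. Of 32 measured genes on the list of adaptors, kinases, ubiquitin enzymes and NF-kB subunits, 18 were called higher with HL7G and 0 lower, and the median was 0.94. Rel (2.80 ± 0.44), Casp8 (2.59 ± 0.30, the caspase of death receptors), Nfkb2 (2.41 ± 0.39, the subunit of the alternative NF-kB pathway) and Rela (2.14 ± 0.21) had the largest differences. Traf1, an inducible adaptor that binds the receptor of Tnfrsf1b, read 6.71 and 6.23 with HL7G, 6.57 with R848, 6.24 with CpG B and 6.17 with poly I:C, against 4.997 and 5.28 in the unstimulated samples. All stimulated arrays were above the unstimulated pair, and the HL7G difference was 1.33 ± 0.23 (limma adjusted p = 0.0169). Relb, the partner of the Nfkb2 product, rose by 0.92 ± 0.21 (limma adjusted p = 0.0349) and lost the call in 8 of 12 alternatives, among them cyclic loess (0.47) and quantile normalization (0.47). None of the 32 was called without the mouse 1 unstimulated array, and 5 were without the mouse 2 unstimulated array. Many of these genes also serve Toll-like receptor signalling, so the list is not specific to TNF receptors. Of the 32, 17 reached 6 on some array, against 2 of the 29 members and 3335 of all 22180 genes. This count includes the stimulated arrays, so a gene can reach 6 because it rose, and it does not show a higher level before stimulation. On the unstimulated arrays of mouse 1 and mouse 2 the median level of the 32 was 4.84 and 4.96. It was 4.6996 and 4.72 for the members and 4.64 and 4.63 for all genes. In the fit limited to genes averaging 6 or more, the median HL7G difference was 0.86, and 457 of 1337 were called. That filter also includes the stimulated arrays, so this median does not separate a shift with level from the response. The part of any shift with level in the signalling values was not tested.

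**Figure D4:**
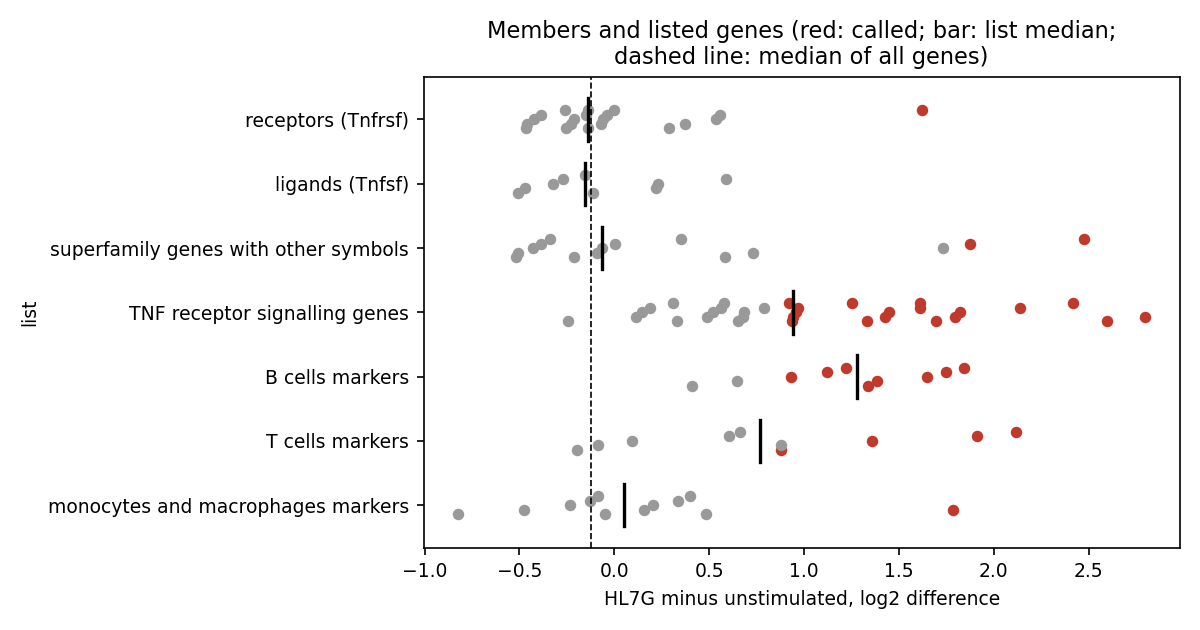
HL7G minus unstimulated on the log2 scale (horizontal axis) for each measured gene of the receptors, the ligands and the lists named on the vertical axis. Red points were called, short bars are list medians (-0.14 for receptors, -0.16 for ligands, 0.94 for signalling genes, 1.28 for B cell markers), and the dashed line is the median of all genes at -0.12. Genes averaging 6 or more over all arrays, a filter that a gene can pass because it rose, had a median of 0.86. The lists differ in level.

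Markers of the cell types that the selected cells could hold were summarised in the same fit. With HL7G, 1 of 12 monocyte and macrophage markers was called higher, Lyz2, which encodes lysozyme (1.79 ± 0.32). Of the 12, 6 were above 0 and 6 below, with a median of 0.05. Cx3cr1 (-0.82 ± 0.24, limma adjusted p = 0.0714) and Fcgr1 (-0.48 ± 0.19) were lower without being called. The summed level of the 12 markers was 8.85 to 9.03 with HL7G, against 8.69 to 8.85 in the unstimulated samples. None of 7 natural killer cell, 7 dendritic cell and 4 platelet markers was called, and 1 of 7 neutrophil markers was called, S100a8 (0.96 ± 0.22). Lymphocyte markers thus make up 12 of the 14 called markers in the deposited values. The marker lists differ in level. Their medians on the 2 unstimulated arrays were 4.997 and 5.19 (B cells), 5.003 and 5.22 (T cells) and 4.88 and 4.99 (monocytes and macrophages). The others had 4.31 and 4.54 (natural killer cells), 4.88 and 4.52 (dendritic cells), 4.41 and 4.13 (neutrophils) and 4.60 and 4.91 (platelets). Marker calls were not counted after other normalizations. The part of lymphocyte markers in the difference of Tnfrsf1b, a receptor also found on lymphocytes, was not tested.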

How the data were processed

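Levels were measured on 7 arrays of splenic monocyte RNA. The authors deposited log2 values, 1 for each probe set and array. Per the submitters' processing notes, RMA, Transcriptome Analysis Console and Affymetrix Expression Console were used, without stated versions. Of 41345 probe sets, 23521 were annotated to a single symbol, 1814 to several and 16010 to none in the platform annotation, and the brightest on average was kept for each of 22180 genes. The labels name no genome build.

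All 7 arrays entered 1 limma 3.58.1 fit (R 4.3.3) with 5 groups, 2 residual and 5.48 prior degrees of freedom, and Benjamini-Hochberg adjustment over all 22180 genes. Calls were made where the adjusted p was under 0.05. Errors are standard errors, and the number of arrays limits the precision: they rest on 2 mice. No filter on level was set, so every member was tested. The fit was tested on simulated data with independent errors and no shift of whole arrays. That run does not show how the fit handles differences between whole arrays like those seen here.

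Arrays with the same mouse number come from 1 animal, per the labels, so the numbers pair the samples. Over all genes the differences between mice had r = -0.12 between the unstimulated and HL7G pairs. Blocking on the mouse, 4 fits leaving out 1 array, 2 level filters, 3 further normalizations, the mean of a gene's probe sets and a variance trend were run as alternatives.

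Members, lists and named genes were chosen with earlier results of these data known. Members were named with values if called or at least 2-fold from the unstimulated mean, and the receptors of Tnf and set ligand and receptor pairs always. Tnfrsf19, Tnfrsf21, Tnfrsf22, Tnfrsf23, Tnfrsf26, Foxp3, Cx3cr1 and Fcgr1 were named after their values were seen. Tnfsf12 and Tnfsf13 were not analysed here. The IgG condition of the protocol has no array among the 7, so HL7G was set against unstimulated cells without a control antibody. Promoter windows are from RefSeq.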

Additional observations from a re-analysis of the deposited data

How the results depend on the processing

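Tnfrsf1b had an HL7G difference of 1.21 to 1.90 over 11 alternatives and was called in 10 of them, the exception being the fit without the mouse 1 unstimulated array. The mouse as a block kept its call (1.62, limma adjusted p = 0.0162) and the count of 1 member, and changed the call of Cd40 and Relb (limma adjusted p = 0.0433 and 0.0595). Leaving out 1 array gave 0 to 3 members with HL7G (Tnfrsf13c, Tnfrsf1b and Tnfsf8 without the mouse 2 HL7G array), 0 to 1 with R848, 0 to 5 of the superfamily genes with other symbols and 0 to 24 of the signalling genes. All genes called with HL7G numbered 2181, against 2 without the mouse 1 unstimulated array, 766 without that of mouse 2, 1669 when HL7G of mouse 1 was left out and 4072 when HL7G of mouse 2 was. With 1 residual degree of freedom there, a lost call need not be a smaller difference. Testing only genes with a mean of at least 6 gave 0 members of the 1 left (Tnfrsf1b fell outside that filter) and 3 of 8 signalling genes. Cyclic loess gave 11 signalling genes, and quantile normalization gave 4 genes with other symbols. The agonist comparisons, with 0 genes called as reported, gave 2031 (R848), 750 (CpG B) and 338 (poly I:C) genes without either HL7G array, 111, 80 and 83 without the mouse 2 unstimulated array, and 747, 117 and 17 after quantile normalization. For R848 cyclic loess gave 21 genes and a variance trend 8. Of the members, Tnfrsf1b was called in the first of these settings for R848 and none in the others. The sign of the HL7G difference held under all 3 normalizations for 22 members and turned in at least 1 for 7 that were not called as deposited (Tnfrsf10b, Tnfrsf13b, Tnfrsf13c, Tnfrsf14, Tnfrsf23, Tnfsf4 and Tnfsf9). The median over all genes was -0.12 as deposited and -0.02 after cyclic loess, where that of the members was -0.05. The design was limited by 2 mice and single agonist arrays, and by levels near 5 or below for most members.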
